A study of Mus musculus with 11 samples.

Results

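A set of genes from the TGF-beta pathway were followed across all libraries of the series. They are the ligand genes Tgfb1, Tgfb2 and Tgfb3, the receptor genes Tgfbr1, Tgfbr2 and Tgfbr3, the signal mediator Smad3, the feedback inhibitor Smad7 and the classical target Tgfbi. They were chosen by name, with earlier results of these data known. These are 9 of the 24849 genes in the table, and each of the 9 was found with 1 entry. The cells were AML12, hepatocytes immortalized from the liver of mice with a human TGF-alpha transgene, and their polyadenylated RNA was sequenced. The WT group held 3 libraries of the parental line (WT 5-6, WT 7 and WT 8). The KO group held 4 libraries (KO 5 to KO 8) of cells in which Txndc5 had been cut with CRISPR/Cas9 and recombined with a puromycin resistance cassette. The labels give the KO genotype as a knockdown. The KI group held 4 libraries (KI 5 to KI 8) of cells labelled as a TXNDC5 knock-in at the ROSA26 safe harbour. All lines shared the AML12 background, and the medium given for AML12 cells contained fetal bovine serum, insulin, transferrin, selenium and dexamethasone. Neither the number of clones in each edited line nor whether libraries of a group came from separate cultures is given in the sources used here, so the p-values measure the spread between these libraries, which may be technical.

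TGF-beta ligands are secreted in a latent form, held by latency proteins until integrins or proteases release them. The active dimer binds TGFBR2, which recruits and phosphorylates TGFBR1, and TGFBR1 phosphorylates SMAD2 and SMAD3, which enter the nucleus with SMAD4. SMAD7 occupies the activated receptor and shuts the signal down, and betaglycan, the product of Tgfbr3, presents ligand to TGFBR2. In hepatocytes the pathway is known for growth arrest, apoptosis and loss of epithelial traits. TXNDC5, a protein disulfide isomerase of the endoplasmic reticulum, is known from fibroblasts to assist the folding of TGFBR1.

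Total counts ranged from 29840366 to 38422243 per library. Txndc5 itself had a level of 142.9 ± 4.37 CPM (counts scaled to library size with TMM factors, which bring most genes level between libraries; mean ± SD, n = 3) in WT, 10.2 ± 1.90 in KO (n = 4) and 169 ± 10.3 in KI (n = 4). It was lower in KO than in WT (log2 fold change -3.81, SE 0.15, adjusted p = 4.09e-08 by edgeR's quasi-likelihood test). In KI, each library lay above each WT library, yet the difference was not called (log2 fold change 0.24, SE 0.12, adjusted p = 0.136). WT 8 stood apart from WT 5-6 and WT 7, with an SD of the log2 differences over genes of 0.696 and 0.613 against 0.445 to 0.548 for other pairs within groups. Newly assembled genes took 18.8% to 25.3% of the counts in WT, 11.9% to 13.4% in KO and 9.65% to 16.4% in KI. Of the 12 hepatocyte markers, 11 were over 3 counts in every WT library, and their summed level was 7797 to 9826 CPM in WT, 9919 to 11822 in KO and 8707 to 10276 in KI. These markers moved both ways, with 6 higher and 4 lower of 12 tested in KO against WT (median log2 fold change 0.28) and 3 higher and 4 lower of 11 tested in KI against WT (median -0.47). Albumin, for example, was 373 to 739 CPM in WT, 3589 to 4767 in KO and 160 to 302 in KI. The summed level of 12 stellate cell and fibroblast markers was 0.357 to 1.24 CPM in WT, 0.252 to 1.15 in KO and 0.551 to 0.895 in KI, with Lrat, Pdgfra, Pdgfrb and Lum at 0 counts in WT and KO. The 8 endothelial markers summed to at most 0.425 CPM in any library, and the macrophage markers Adgre1, Clec4f, Marco and Vsig4 were at 0 counts in each library, while the list, most of it Cd14, summed to 481 to 669 CPM in WT, 376 to 464 in KO and 374 to 422 in KI. All 3 macrophage markers tested were lower in KO than in WT (median log2 fold change -1.98), and 2 of 3 were lower in KI than in WT. Of the 8 cholangiocyte markers, Krt19 was above 565 CPM in every library, and their sum was 3049 to 4418 CPM in WT, 1374 to 1530 in KO and 2643 to 3129 in KI. The part of these marker levels in the results was not tested. In bulk samples fewer cells of a type and less RNA per cell cannot be told apart.

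The receptor gene Tgfbr1 was by far the most abundant of the 9 genes when levels were divided by exon length. In WT it reached 118 ± 12.0 CPM per kb, followed by Tgfbr2 at 9.70 ± 1.64, Smad3 at 8.28 ± 2.03, Tgfb3 at 5.97 ± 1.67, Tgfb1 at 4.75 ± 1.40, Tgfb2 at 4.12 ± 0.360, Smad7 at 2.97 ± 0.213 and Tgfbr3 at 0.488 ± 0.178 (n = 3). From Tgfbr2 down to Tgfb2 each gene overlapped its neighbour in that order, whereas Tgfbr1, Smad7 and Tgfbr3 did not overlap theirs. In KO the ligand order was different. There Tgfb1 led with 6.28 ± 0.379 CPM per kb, Tgfb2 had 4.24 ± 0.613 and Tgfb3 had 3.25 ± 0.431 (n = 4), and Tgfb1 did not overlap Tgfb2. In KI the ligand order was that of WT, with Tgfb3 at 5.96 ± 1.11, Tgfb1 at 4.33 ± 0.351 and Tgfb2 at 3.91 ± 0.334 (n = 4).

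**Figure D1:**
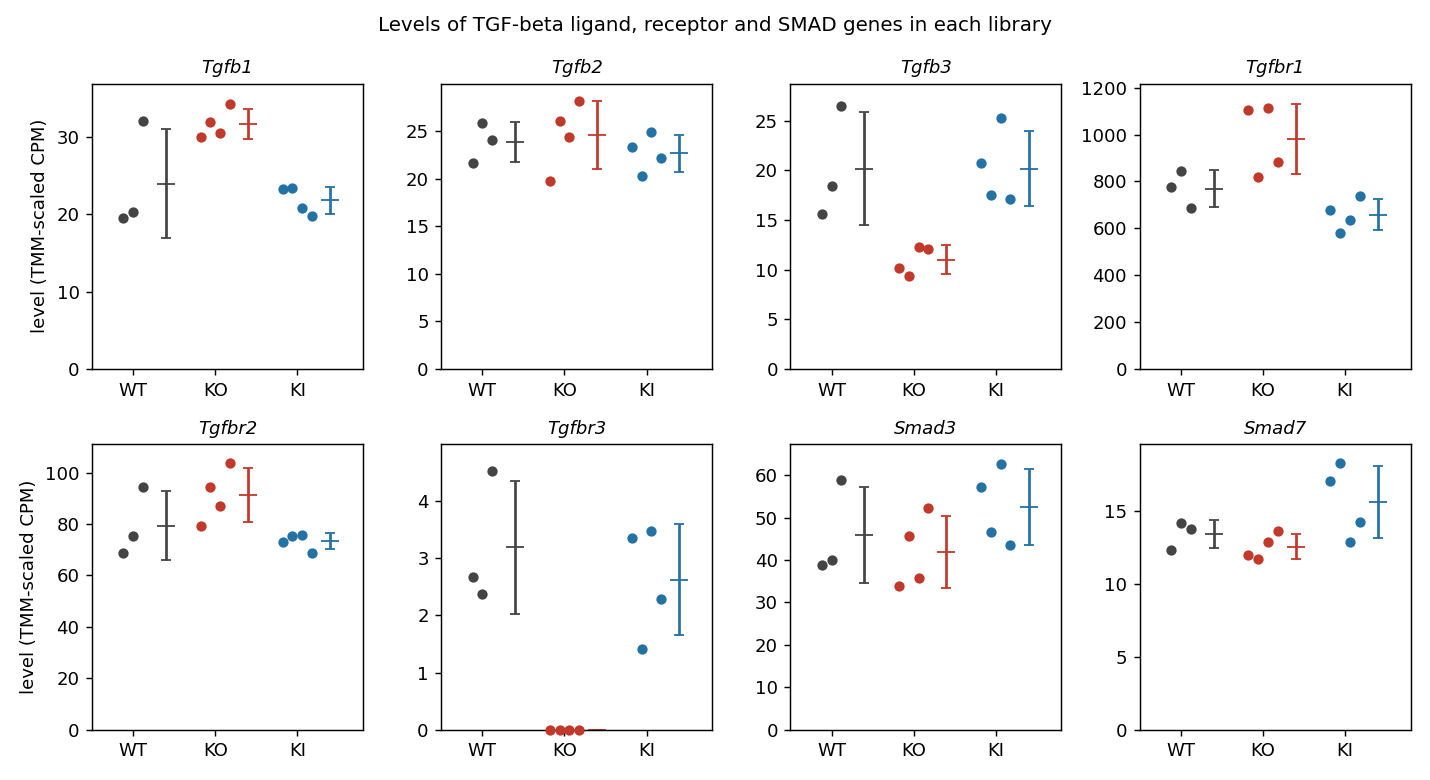
Level of each detected gene in each library (y axis, TMM-scaled CPM, starting at 0) in WT (grey, 3 libraries), KO (red, 4) and KI (blue, 4), with points for libraries in numerical order and bars for the mean ± SD. Tgfbr3 sits at 0 in all 4 KO libraries, Tgfb3 is lower in KO than in any other library, and WT 8, the right-hand grey point, is the highest WT library for 5 of the 8 genes.

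A large part of all genes differed in each comparison, and the members are read against that background. Between KO and WT, 55.1% of the 13359 genes tested were called (adjusted p under 0.05), 26.7% higher and 28.4% lower in KO. There, 2 of the 8 members tested were called, both lower (Tgfb3 and Tgfbr3). For KI against WT, 42.3% of 13534 genes were called (21.2% higher and 21% lower), and 0 of the 8 members tested. At an unadjusted edgeR p under 0.05 the number was also 0, DESeq2 called 0 as well, and 0 of the 8 members had groups that did not overlap, beside 44.7% of all genes. Between KO and KI, 54% of 13269 genes were called (27% in each direction). There, 5 of the 8 members tested were called: Tgfb1, Tgfbr1 and Tgfbr2 were higher in KO, and Tgfb3 and Tgfbr3 were lower. The median log2 fold change of the 8 members was -0.05 between KO and WT, -0.10 between KI and WT and -0.09 between KO and KI, beside -0.03, -0.02 and 0.00 over all genes tested. The 3 comparisons share libraries, so they are not independent of each other.

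**Figure D2:**
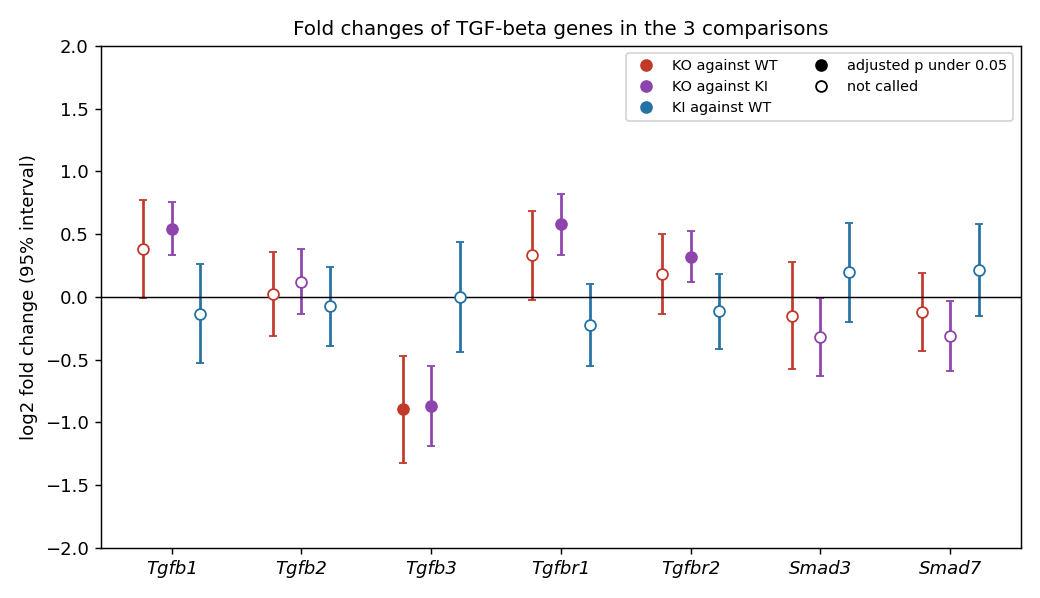
Log2 fold change (points) with its 95% interval (bars) for 7 genes, for KO against WT (red), KO against KI (purple) and KI against WT (blue), where filled points had an adjusted p under 0.05. The interval of Tgfb3 lies below 0 in both comparisons with KO, while all KI against WT intervals span 0; Tgfbr3, at 0 counts in KO, and Tgfbi, at 0 counts throughout, are not drawn.

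Among the ligands, Tgfb3 was lower in KO than in both other groups. This isoform is known for its role in palate fusion and epithelial transitions. Its level was 15.6, 18.4 and 26.5 CPM in WT 5-6, WT 7 and WT 8, it was 10.1, 9.36, 12.3 and 12.1 in KO 5 to KO 8, and it was 20.8, 17.6, 25.3 and 17.1 in KI 5 to KI 8. All 4 KO libraries lay below each WT and each KI library, in a comparison where 55.3% of all genes tested did not overlap between KO and WT and 48.6% between KO and KI. Tgfb3 was lower in KO by a log2 fold change of -0.90 against WT (SE 0.19, adjusted p = 0.00245) and of -0.87 against KI (SE 0.15, adjusted p = 0.000155). The call against WT was lost when libraries were scaled by their total counts in place of TMM, called library totals from here on (log2 fold change -0.51, adjusted p = 0.0982). The log2 fold change between KI and WT was 0.00, with a 95% interval from -0.44 to 0.43.

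Tgfb1, the isoform best known from liver fibrosis, had its highest mean level in KO. Its level was 29.97, 31.9, 30.5 and 34.3 CPM in KO 5 to KO 8, against 23.2, 23.4, 20.8 and 19.8 in KI 5 to KI 8. Those groups did not overlap, and Tgfb1 was called higher in KO than in KI (log2 fold change 0.54, SE 0.10, adjusted p = 0.000297). In WT it was 19.5 and 20.3 CPM in WT 5-6 and WT 7 and 32.0 in WT 8, so that WT 8 lay within the KO range. The log2 fold change between KO and WT was 0.38 (SE 0.18, adjusted p = 0.087), and without WT 8 it was 0.68 and called (adjusted p = 0.000573). It was also called under library totals (0.76, adjusted p = 0.0179), with all 11 libraries in 1 fit (0.40, adjusted p = 0.0425) and under totals of annotated genes (0.60, adjusted p = 0.0323). With a fit that blocks on replicate number, 5 of 13 alternatives called it. DESeq2 did not (0.37, adjusted p = 0.103), nor did edgeR with no filter on low counts (0.40, adjusted p = 0.0787). Of the 7 fits that left out a single library, 1 called it.

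Tgfb2, the isoform that most needs betaglycan for receptor binding, showed no call in any comparison. It was 21.7 to 25.8 CPM in WT, 19.8 to 28.1 in KO and 20.3 to 24.9 in KI, so all groups overlapped. Its 95% interval for the log2 fold change ran from -0.31 to 0.36 between KO and WT and from -0.14 to 0.38 between KO and KI.

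The composition of the ligand counts within a library does not depend on the scaling between libraries. Tgfb3 made up 29.4% ± 2.39 of the Tgfb1, Tgfb2 and Tgfb3 counts in WT (SD, n = 3), 16.4% ± 1.85 in KO and 31.0% ± 3.21 in KI (n = 4 each). Tgfb1 made up 34.8% ± 3.71 in WT, 47.2% ± 2.06 in KO and 33.9% ± 3.65 in KI, and Tgfb2 stayed between 29.1% and 40.1% in every library. In KO there were 2.95, 3.41, 2.48 and 2.84 Tgfb1 counts per Tgfb3 count in KO 5 to KO 8. In WT there were 1.25, 1.10 and 1.21, and in KI 1.12, 1.33, 0.823 and 1.16, so that all KO libraries were above all others. These shares and ratios were looked at after the levels were known and are given as a description.

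**Figure D3:**
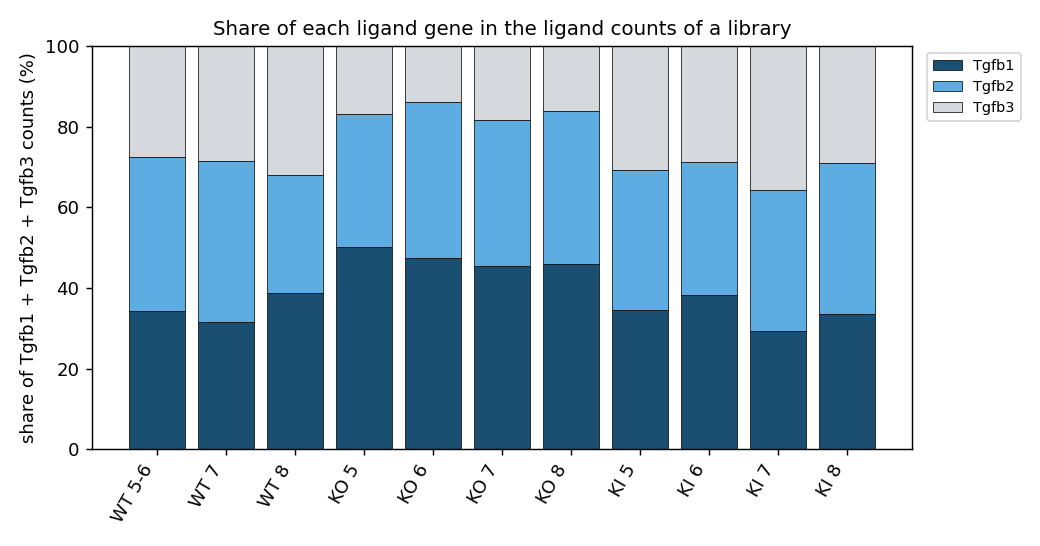
Share of each ligand gene in the summed Tgfb1, Tgfb2 and Tgfb3 counts of a library (y axis, percent), with 1 stacked bar per library. The Tgfb3 share (light grey, top) is 13.9% to 18.3% in the KO libraries and 27.6% to 35.6% in the WT and KI libraries.

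Tgfb1, Tgfbr1 and Tgfbr2 were the members called higher in KO than in KI, and the 250 bases before their annotated starts are shown to let these genes be compared at their promoters. The sequences are from RefSeq (GRCm38.p6), which held a promoter for 6 of the 9 members, and read 5′ to 3′ on the gene's own strand. Capitals mark GGGCGG on either strand, the core of the GC box bound by SP1 family factors. The Tgfb1 window lies at chr7:25686752-25687001 on the plus strand, the Tgfbr1 window at chr4:47352972-47353221 on the plus strand and the Tgfbr2 window at chr9:116175364-116175613 on the minus strand.
Tgfb1: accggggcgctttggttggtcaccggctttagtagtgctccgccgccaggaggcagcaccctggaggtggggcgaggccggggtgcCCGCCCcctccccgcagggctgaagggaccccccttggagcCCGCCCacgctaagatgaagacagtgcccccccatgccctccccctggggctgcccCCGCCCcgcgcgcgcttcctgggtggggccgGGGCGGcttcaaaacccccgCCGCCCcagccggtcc
Tgfbr1: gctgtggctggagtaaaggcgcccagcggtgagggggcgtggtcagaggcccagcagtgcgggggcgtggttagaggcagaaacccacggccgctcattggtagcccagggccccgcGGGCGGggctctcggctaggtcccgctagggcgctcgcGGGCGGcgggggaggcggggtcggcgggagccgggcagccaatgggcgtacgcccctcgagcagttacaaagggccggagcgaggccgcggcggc
Tgfbr2: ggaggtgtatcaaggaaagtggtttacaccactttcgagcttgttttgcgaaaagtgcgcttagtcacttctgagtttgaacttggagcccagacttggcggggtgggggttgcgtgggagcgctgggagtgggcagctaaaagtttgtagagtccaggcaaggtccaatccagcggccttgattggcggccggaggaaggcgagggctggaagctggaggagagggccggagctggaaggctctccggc
The Tgfb1 window held 5 matches and 75.2% G and C, and the Tgfbr1 window held 2 matches and 74.8%. The Tgfbr2 window held 0 matches and 58.4%, so the 3 windows do not share this motif. Of 32851 promoter windows of this length, 32.7% held at least 1 match, and the median G and C content was 52.4%. The SMAD binding motif CAGAC, searched on both strands, was present in 42.2% of all windows, once in the Tgfbr2 window and not in the windows shown for Tgfb1 and Tgfbr1. TATAAA, present in 12.4% of all windows, and the AP-1 motif TGANTCA, present in 6.75%, were in none of the 3. RefSeq held a second Tgfbr1 window, not at the start of the gene, at chr4:47385966-47386215 on the plus strand, with 0 GGGCGG matches, 1 CAGAC match and 52.8% G and C. These matches describe letters in a window and no binding.

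Of the receptors, Tgfbr1, which encodes the type I kinase, was higher in KO than in KI. Its level was 1104, 820, 1115 and 884 CPM in KO 5 to KO 8, and 678, 579, 637 and 738 in KI 5 to KI 8. The groups did not overlap, and the log2 fold change was 0.58 (SE 0.11, adjusted p = 0.000538). In WT it was 776, 843 and 688 CPM, between both edited lines and overlapping each. Neither difference from WT was called, with log2 fold changes of 0.33 in KO (SE 0.16, adjusted p = 0.103) and -0.23 in KI (SE 0.15, adjusted p = 0.244). Under library totals the KO difference from WT was 0.75 (adjusted p = 0.000962), and with all 11 libraries in 1 fit it was 0.35 (adjusted p = 0.0468). In all, 4 of 13 alternatives called it, and 0 of the 7 fits that left out a single library.

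Tgfbr2, the ligand-binding type II kinase, followed the same order with a smaller difference. It was 79.3, 94.5, 87.2 and 103.9 CPM in KO 5 to KO 8 and 68.9 to 75.7 in KI, without overlap (log2 fold change 0.32, SE 0.09, adjusted p = 0.00995). In WT it was 68.6, 75.4 and 94.4 CPM, with WT 8 inside the KO range, and the KO difference from WT was 0.18 (SE 0.15, adjusted p = 0.317). Without WT 8 this difference was 0.35 and called (adjusted p = 0.0288), and under library totals it was 0.58 and called (adjusted p = 0.0275). These were the only 2 of 13 alternatives that called it. The number of Tgfbr1 counts per Tgfbr2 count overlapped in all groups, at 7.28 to 11.3 in WT, 8.51 to 13.9 in KO and 7.68 to 10.7 in KI.

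Tgfbr3, the coreceptor betaglycan, was at 0 counts in all 4 KO libraries. It had 60, 59 and 128 counts in WT 5-6, WT 7 and WT 8, and 120, 51, 133 and 75 counts in KI 5 to KI 8, or 1.41 to 4.53 CPM in these 7 libraries. Against a floor of 3 counts per library, KO was at least 38.5-fold lower than WT (adjusted p = 3.69e-05) and at least 31.7-fold lower than KI (adjusted p = 1.5e-06). The call held in all 13 alternatives against WT and all 14 against KI. A count of 0 allows a level of up to 0.090 CPM in the KO libraries, for counting error only. Betaglycan was the rarest detected member in WT and KI, where it did not differ detectably between the lines (log2 fold change -0.28, 95% interval -1.03 to 0.48).

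Smad3, the mediator that carries the TGF-beta signal to DNA, and Smad7, the feedback inhibitor that TGF-beta itself induces, were not called in any comparison. Smad3 was 38.9, 39.9 and 58.9 CPM in WT, 34.0, 45.7, 35.8 and 52.3 in KO and 57.3, 46.6, 62.6 and 43.6 in KI, with overlap between all groups. Its log2 fold change between KO and KI was -0.32 (95% interval -0.63 to -0.01, adjusted p = 0.0773), and it was called there without KO 8 (-0.45, adjusted p = 0.0164) or without KI 8 (-0.41, adjusted p = 0.0285). For KI against WT it was 0.19 (adjusted p = 0.411), and without WT 8 it was 0.41 and called (adjusted p = 0.0402). Smad7 was 12.3, 14.2 and 13.7 CPM in WT, 12.0, 11.7, 12.8 and 13.6 in KO and 17.0, 18.3, 12.9 and 14.2 in KI. KI 5 and KI 6 lay above every other library, but KI 7 lay inside the KO range. The log2 fold change between KO and KI was -0.31 (95% interval -0.59 to -0.03, adjusted p = 0.058), called without KI 7 (-0.39, adjusted p = 0.0233) or without KI 8 (-0.36, adjusted p = 0.0401). In KI against WT it was 0.21 (adjusted p = 0.326), and under library totals 0.53 and called (adjusted p = 0.0393). Against WT the direction in KO was unsettled for both genes, at -0.15 for Smad3 and -0.12 for Smad7 with TMM scaling and 0.24 and 0.29 with library totals, none of them called.

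Tgfbi, an extracellular matrix gene named for its induction by TGF-beta, had 0 counts in all 11 libraries. Its upper limit was between 0.069 and 0.134 CPM, depending on the library. It was therefore not tested, and no difference between the lines was detectable at this depth.

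The calls between KO and WT depended on the scaling, which moved all genes, and on other settings. With TMM kept, 4 members were called in place of 2 when WT 8 was left out. The number was also 4 with all 11 libraries in 1 fit and with a block on replicate number. With library totals the median log2 fold change over all genes was 0.38 in place of -0.03, and 72.8% of the calls were higher in KO in place of 48.5%. For KI against WT the median moved to 0.30, and 76.3% of calls were higher in KI in place of 50.2%. Measured from the median of all genes, the KO and WT difference of Tgfb1 was 0.42 with TMM and 0.39 with library totals, that of Tgfbr1 was 0.36 and 0.37, and that of Tgfb3 was -0.86 and -0.89. Between KO and KI the median was 0.06 with library totals, and 5 members were called under it too.

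**Figure D4:**
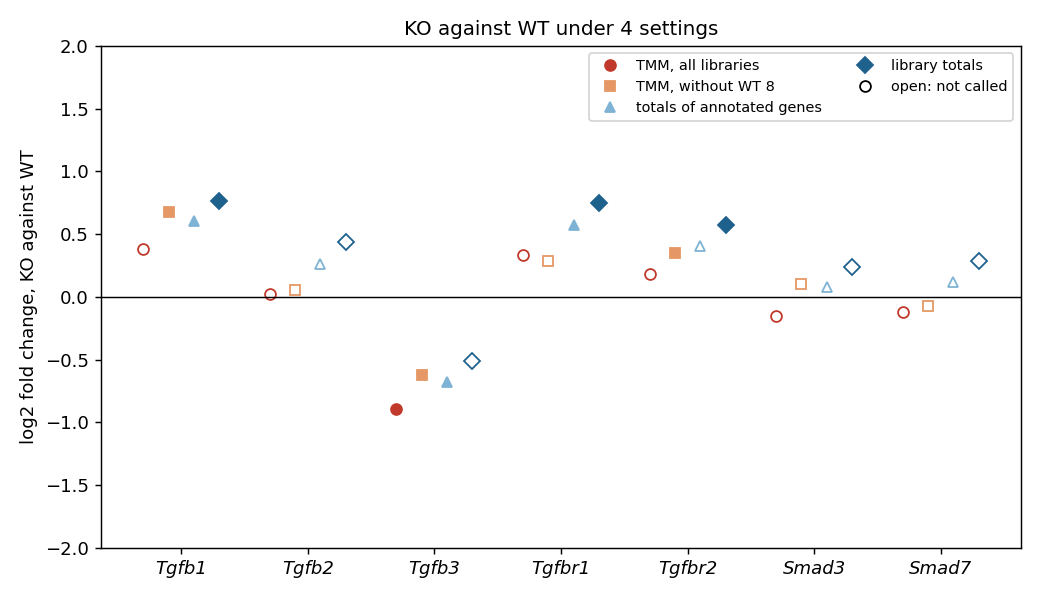
Log2 fold change of 7 genes between KO and WT (y axis) under TMM scaling with all libraries (circles), TMM without WT 8 (squares), totals of annotated genes (triangles) and library totals (diamonds); filled symbols had an adjusted p under 0.05. Tgfb3 stays below 0 in all 4 settings, from -0.90 to -0.51, and Tgfb1 stays above 0, from 0.38 to 0.76, while Smad3 and Smad7 cross 0.

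Most of the genes tested that make, hold and release the ligands differed between KO and WT. Of 11 tested of 16 listed, 10 were called (90.9%, beside 55.1% of all genes), 5 higher and 5 lower. Their median log2 fold change was -0.26. Like the members, the pathway lists were chosen with earlier results of these data known, so their shares of calls are a description. Lrrc32, which encodes GARP, a surface anchor of latent TGF-beta, was at 0 counts in all KO libraries, against 2.51 ± 0.818 CPM in WT (n = 3) and 4.80 ± 1.27 in KI (n = 4). KO was at least 30.2-fold lower than WT and at least 57.8-fold lower than KI. The latent TGF-beta binding protein gene Ltbp1 had 37.1 ± 5.60 CPM in KO and 69.9 ± 10.4 in KI, against 12.3 ± 4.78 in WT (log2 fold changes 1.56 and 2.49), and Ltbp3 fell from 268 ± 78.6 CPM in WT to 124 ± 11.8 in KO and 147 ± 8.35 in KI. The Ltbp3 call between KI and WT was lost under library totals (adjusted p = 0.0512). Pcsk6, a proprotein convertase, was higher in KO at 50.4 ± 5.48 CPM than in WT at 12.8 ± 4.88 (log2 fold change 1.95) and than in KI at 17.0 ± 1.78 (1.57), and Ltbp4 was likewise higher in KO (1.64 against WT and 1.07 against KI). Thrombospondin 1, an activator of latent ligand, was lower in KO at 2.35 ± 1.03 CPM than in WT at 5.47 ± 1.27 (-1.21), a call that library totals ended (adjusted p = 0.0689), and than in KI at 5.54 ± 0.884 (-1.20). Between KI and WT, 5 of 11 were called (45.5%, beside 42.3% of all genes), 2 higher and 3 lower. Under library totals 3 were higher and 0 lower. Itgb3 was among those called lower with TMM (-0.79, lost under library totals at adjusted p = 0.0901). Between KO and KI, 9 of 11 were called (81.8%, beside 54% of all genes), 4 higher and 5 lower. Integrin beta 5 (Itgb5) was higher in KO at 74.8 ± 1.81 CPM against 39.1 ± 1.46 in KI.

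Activin and BMP ligand genes were mostly lower in KO. Between KO and WT 5 of 7 tested of 14 listed were called (71.4%, beside 55.1% of all genes), 1 higher and 4 lower. Their median log2 fold change was -0.67. Between KO and KI 6 of 7 were called (85.7%, beside 54%), 1 higher and 5 lower, with a median of -0.41. Inhba, the activin A subunit gene, was 1.22 ± 0.381 CPM in KO, 8.15 ± 2.76 in WT and 5.47 ± 1.40 in KI. Gdf11, an activin-like ligand, was 2.43 ± 0.367 CPM in KO, 9.96 ± 0.631 in WT and 15.3 ± 1.38 in KI, and it was also called higher in KI than in WT (log2 fold change 0.61). Bmp4 was lower than WT (40.6 ± 4.49 CPM) in both edited lines, at 18.3 ± 1.17 in KO and 18.1 ± 2.00 in KI, with log2 fold changes of -1.16 in each. Inhbb was higher in KI at 115.4 ± 5.95 CPM than in WT at 69.2 ± 5.89 (0.73) and than in KO at 44.1 ± 4.91 (KO against KI -1.38). In KI against WT, 3 of 6 tested were called (50%, beside 42.3% of all genes), 2 higher and 1 lower.

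Among the other receptors of the family, 11 were listed and 7 tested. Between KO and WT 4 of 7 were called (57.1%, beside 55.1% of all genes), 1 higher and 3 lower. Under library totals 3 were higher and 1 lower. Bmpr1a, a type I BMP receptor gene, was lower than WT (172 ± 41.3 CPM) in KO at 99.9 ± 8.24 and in KI at 96.3 ± 6.88, with log2 fold changes of -0.81 and -0.84. Acvr1b, the type I activin receptor gene, was 47.0 ± 7.00 CPM in WT, 34.2 ± 4.45 in KO and 64.4 ± 6.32 in KI, and it differed between KO and KI by a log2 fold change of -0.91 (adjusted p = 7.06e-06). Its calls against WT did not hold in every alternative (8 of 13 for KO and 9 of 13 for KI). Between KI and WT 3 of 7 were called (42.9%, beside 42.3% of all genes), 2 higher and 1 lower. Between KO and KI 3 of 7 were called (42.9%, beside 54%), 1 higher and 2 lower. The type II receptor gene Acvr2a was higher in KO at 45.0 ± 5.69 CPM against 29.9 ± 2.72 in KI.

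Few of the remaining SMAD genes were called between KO and WT in the main fit, which used TMM. There 1 of 6 was called, lower (16.7%, beside 55.1% of all genes), and 2 were called, both higher, under library totals. Without WT 8, 3 were called, 2 of them higher, and a block on replicate number gave the same counts. The 1 called in the main fit was the inhibitory Smad6 at 5.04 ± 0.666 CPM against 8.41 ± 1.08 (log2 fold change -0.75, adjusted p = 0.0052). Library totals no longer called Smad6 (-0.35, adjusted p = 0.195). In KI, Smad2, the partner of Smad3, was higher than in WT at 57.6 ± 4.88 CPM against 36.8 ± 7.74 (0.65), as was the BMP mediator Smad5 (0.56), and Smad6 was lower (-0.72), a call that library totals ended (adjusted p = 0.173). Between KO and KI 4 of 6 were called (66.7%, beside 54% of all genes). Smad1, Smad2 and Smad5 were lower in KO by -0.45, -0.35 and -0.46 on the log2 scale, and Smad9 was higher (1.42).

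Of the corepressors and other brakes on the pathway, 18 were listed and 15 tested. Between KO and WT 6 of 15 were called (40%, beside 55.1% of all genes). With TMM 0 were higher and 6 lower, but 5 were higher and 4 lower under library totals. Bambi, a decoy receptor without kinase activity, was 17.0 ± 3.13 CPM in KO, 47.4 ± 15.6 in WT and 27.4 ± 5.00 in KI, and the KO difference from WT (log2 fold change -1.50) kept its call under library totals (-1.05, adjusted p = 0.000845). The activin-binding follistatin-like gene Fstl3 was 18.04 ± 2.87 CPM in KO and 45.6 ± 3.73 in KI (-1.33), with WT between them at 33.8 ± 5.58. For KI against WT, library totals called 6 higher and 1 lower. With TMM 6 of 15 were called (40%, beside 42.3% of all genes), 3 higher and 3 lower. Among these the corepressor gene Tgif1 (0.64) and the feedback inhibitor gene Pmepa1 (0.60) were higher in KI, and Nedd4l, a ubiquitin ligase gene, was lower (-1.02). Between KO and KI 11 of 15 were called (73.3%, beside 54% of all genes), 1 higher (Nedd4l, 1.11) and 10 lower. Library totals gave 1 and 8.

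Genes known as TGF-beta targets held the largest share of calls of the 6 lists between KO and KI. Of 22 tested of 30 listed, 21 were called (95.5%, beside 54% of all genes), 6 higher and 15 lower in KO. Library totals gave the same numbers of calls. The median log2 fold change was -0.86 beside 0.00 over all genes tested. Ccn2 (connective tissue growth factor) was 84.0 ± 10.7 CPM in KO and 423 ± 28.7 in KI (log2 fold change -2.33, SE 0.10, adjusted p = 1.03e-10). Ccn1 was 40.4 ± 4.39 CPM in KO, 21.9 ± 3.12 in WT and 243 ± 17.8 in KI, and was thus higher than WT in both edited lines (0.86 and 3.47). Both genes are also known targets of the Hippo effector YAP. Postn, a matrix gene, had 3 counts in KO 5 and 0 in the other KO libraries, against 5.49 ± 1.03 CPM in KI and 1.97 ± 0.822 in WT. Among the 6 genes higher in KO than in KI were the helix-loop-helix inhibitors Id1 and Id3 (1.36 and 2.07). The transcription factor gene Zeb2 was another, at 23.7 ± 2.65 CPM against 8.38 ± 0.860 (1.50). Id1 and Id3 are known as BMP targets that TGF-beta can repress, so the direction of a call has no single meaning in this list.

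Against WT, 13 of 22 target genes were called in KO (59.1%, beside 55.1% of all genes), 5 higher and 8 lower. In KI 16 of 22 were called (72.7%, beside 42.3%), 12 higher and 4 lower (12 and 1 under library totals). This number fell to 12 to 15 when single libraries were left out, to 12 with a block on replicate number and to 13 with no filter on low counts. Without WT 8 it was 12 (10 higher and 2 lower), in a fit that called 6969 of all 13837 genes tested. In KO, fibronectin (Fn1) was 338 ± 71.9 CPM against 1075 ± 366 in WT (log2 fold change -1.69, SE 0.23, adjusted p = 0.000118), the collagen cross-linker Loxl2 was 45.1 ± 2.66 against 149 ± 37.5 (-1.75), and Id2 was 114 ± 21.1 against 339 ± 59.1 (-1.59). Zeb2 was higher in both edited lines than in WT, where it had 2.58 ± 0.138 CPM (3.15 in KO and 1.67 in KI). In KI, Id1 was lower at 66.2 ± 7.46 CPM against 178 ± 23.8 in WT (-1.42), Id3 was lower (-1.05, lost under library totals at adjusted p = 0.0773) and Postn was higher (1.45). Several genes of this list answer other signals as well, so its counts describe these genes and not the activity of the receptors.

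**Figure D5:**
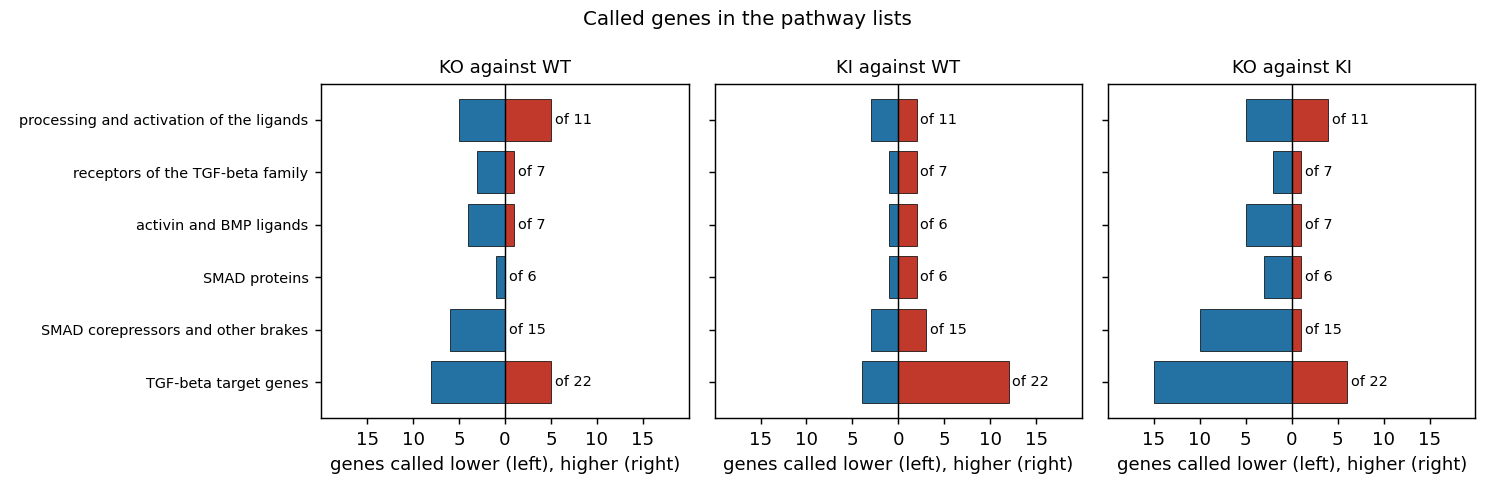
Number of genes called lower (blue, to the left) and higher (red, to the right) in each list of pathway genes, with the number tested printed beside each bar, for KO against WT, KI against WT and KO against KI. In KO against KI, 15 target genes and 10 brakes are lower and 6 and 1 are higher, while 55.1%, 42.3% and 54% of all genes tested were called in the 3 comparisons.

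The genes whose levels ran most closely with the leading member of each role were found by Pearson's r of log2 CPM over the 11 libraries, among 12802 genes. For Tgfb1 they were Zcchc8 (r = 0.965), Snd1 (0.963) and BC052040 (0.963). For Tgfbr1 they were Usp47 (0.962), Ccdc32 (0.961) and Tmem143 (0.942), and for Smad3 they were Dab2ip (0.943), Asap1 (0.925) and Top3a (0.923). The points share their lines and libraries, and the values rank genes and carry no test.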

How the data were processed

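Polyadenylated RNA was sequenced in 11 libraries. The authors' deposited table holds raw counts per gene that their sequencing provider made after read cleaning and genome mapping. The submitters' processing notes name HISAT2, TopHat2, Bowtie2 and StringTie; their versions, the genome build and the use of strand are not given in the sources used here. Of 26472 lines, 10 with broken fields were left out, and counts were summed by gene name. FPKM columns and the authors' DESeq2 fold changes and p-values, whose decimal points are damaged, were not used. Total counts were 29840366 to 38422243. Each pair of groups was fitted on its own with edgeR 4.0.16 in R 4.3.3 (robust quasi-likelihood, TMM, filterByExpr, prior count 2), with Benjamini-Hochberg adjustment over all genes tested and calls at 0.05. Standard errors follow from the F statistic. Levels are CPM with TMM over all 11 libraries; per-kb levels use merged exons of GENCODE M21. The fit was tested on simulated data. Replicate numbers were not used to pair the libraries in the main fit. Alternatives were library totals, DESeq2 1.42.0, no filter, a replicate block, 1 joint fit, leaving out each library and, added after seeing the data, totals of annotated genes. All 9 members are named; in each pathway list and comparison at most 3 called genes with the largest rise and 3 with the largest fall (mean of at least 1 CPM) could be named, and 3 most similar genes per leading member. The members and the lists of pathway genes and cell type markers were chosen with earlier results of these data known. Folds against a group at 0 use a floor of 3 counts per library.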

Additional observations from a re-analysis of the deposited data

Results flagged for a closer look

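Single libraries stood apart within their group for 5 genes of the pathway lists, none of them among the 9 members. The gap to the nearest library, as a share of the group's range, was 0.876 for Thbs1 in KO 8 (3.89 CPM against 1.71 to 1.98 in the other KO libraries) and 0.846 for Acvr1 in KO 8 (22.6 against 17.2 to 18.03). It was 0.833 for Acvr2a in KO 7 (53.4 against 40.9 to 43.0) and 0.964 for Nedd4l in KI 7 (31.9 against 25.8 to 26.0). For Postn it was 1 in KO 5, which rests on 3 counts (0.084 CPM) against 0 in the other KO libraries. In 94 groups of 4 libraries looked at, 5 such gaps were found, and chance alone gives about 1 in 20, or 4.7.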

How the results depend on the processing

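All 5 member calls between KO and KI held in all 14 alternatives, and the call of Tgfbr3 between KO and WT in all 13. Against WT, the number of members called in KO was 4 in place of 2 under library totals, the replicate block, 1 fit of all 11 libraries and totals of annotated genes, and 2 to 4 when single libraries were left out (4 without WT 8). In KI it was 1 in place of 0 under library totals (Smad7), and 0 to 1 when single libraries were left out (Smad3, without WT 8). The replicate block gave Tgfb1 0.45 (adjusted p = 0.0108) and Tgfbr1 0.33 (adjusted p = 0.0331) in KO against WT. In the block and in the pairs below, WT 5-6 was matched with both number 5 and number 6. The labels do not state what WT 5-6 means. The mean of each line was taken off the log2 CPM of each gene, and what was left was correlated between libraries of different lines. Same-numbered libraries then correlated by -0.28 to 0.306 over 12 pairs, highest for KO 8 with WT 8. A pair with different numbers, KI 7 with WT 8, correlated by 0.258. Whether libraries with the same number were handled together was not tested.

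No reversed value was called. For KO against WT, leaving out single libraries gave -0.050 to 0.11 for Tgfb2 and -0.27 to 0.098 for Smad3 (above 0 without WT 8). Smad3 was 0.24 under library totals and 0.074 under annotated totals, and Smad7 was 0.29 and 0.11. For KI against WT, library totals gave Tgfb1 0.16, Tgfb2 0.25, Tgfb3 0.30, Tgfbr1 0.11, Tgfbr2 0.19 and Tgfbr3 0.019, and annotated totals gave Tgfb1 0.017, Tgfb2 0.095, Tgfb3 0.15 and Tgfbr2 0.043. Tgfb3 there was 0.0094 with no filter and 0.063 under the replicate block. Leaving out single libraries gave -0.26 to 0.13 for Tgfb1, -0.15 to 0.24 for Tgfb3, -0.21 to 0.026 for Tgfbr2 and -0.45 to 0.058 for Tgfbr3, each highest without WT 8. Apart from the shift of all genes with the scaling, the cause was not tested.

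In the lists, called SMAD genes in KO against WT were 2 under library totals and 3 under the replicate block in place of 1, and with single libraries left out 1 to 3, with 2 to 4 receptors and 5 to 10 brakes. In KI against WT, library totals called 3 processing genes in place of 5 and 5 activin and BMP ligands in place of 3, annotated totals called 5 of the latter, and the joint fit called 5 receptors in place of 3. With single libraries left out, calls were 3 to 8 processing genes, 1 to 4 receptors, 3 to 5 activin and BMP ligands and 3 to 9 brakes. For target genes they were 12 to 15 in place of 16. Of 320 counts under alternatives, 298 stayed within 1.5 times. Every member had 1 table entry, so testing entries apart gave nothing new. At 0 counts, Tgfbi could not be compared at this depth.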
